A study of Mus musculus with 12 samples.

Results

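A set of 10 genes of the oxygen-sensing pathway was followed in mouse peritoneal macrophages (PMφs) given oxidized LDL (oxLDL), LPS, or both. They were chosen by name and role, with earlier results of these data known, and make up 10 of the 43278 genes in the deposited table. They are Hif1a and its dimer partner Arnt, the regulators Egln1, Egln3 and Vhl, and the hypoxia targets Vegfa, Bnip3, P4ha1, Ero1l and Adm. PMφs were elicited with thioglycolate in wild-type C57BL/6J mice, harvested by lavage and cultured, and the adherent cells were used. Poly(A) RNA was sequenced from 12 libraries in 4 groups of 3. Control PMφs received neither agent, oxLDL PMφs were loaded with human medium oxLDL at 100 µg/ml for 24 h, LPS PMφs received ultrapure LPS at 10 ng/ml, and oxLDL+LPS PMφs received the same LPS after the same loading. The time between LPS and lysis is not given for these libraries. The methods describe young adult littermates of both sexes whose cells were combined and then split over the treatments, so each library is a mixture of animals in culture. The sex-linked transcripts given below did not show both sexes in every library.

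HIF-1 is a transcription factor made of an oxygen-regulated subunit, HIF-1α (encoded by Hif1a), and a constitutive partner, ARNT (HIF-1β). When oxygen is present, prolyl hydroxylases of the EGLN family mark HIF-1α, the VHL protein recognizes the mark, and the subunit is degraded. When the subunit is spared, by low oxygen or by inflammatory signals in macrophages, the dimer binds the core sequences ACGTG and GCGTG and raises transcription of genes for angiogenesis, metabolism and matrix modification, among them EGLN3, which closes a feedback loop. Much of this control acts on protein, which was not measured, and transcript levels are what follows.

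The positions are those of GRCm38. Hif1a spans chr12:73901375-73947530 on the plus strand and Egln3 chr12:54178981-54203860 on the minus strand. Arnt (chr3:95434388-95497240) and Vhl (chr6:113623959-113631633) are on the plus strand, and Egln1 (chr8:124908587-124949324), Vegfa (chr17:46016993-46032369) and Ero1l (chr14:45283087-45318771) on the minus strand. Bnip3 spans chr7:138890836-138909519 on the minus strand, Adm chr7:110627661-110629820 on the plus strand and P4ha1 chr10:59323296-59373304 on the plus strand. The core sequences ACGTG and GCGTG were looked for on both strands in the RefSeq windows of 300 bases (GRCm38.p6), which reach from 250 bases before to 50 bases after each gene's start site. Windows matched all 10 genes, Ero1l under its newer symbol Ero1a and Vegfa with 2 start sites. ACGTG was found for 7 of 10 genes, against 19.6% of all 32851 windows and 25.1% of the 12453 windows of genes measured here. GCGTG was also found for 7 of 10, against 32.4% of all windows and 49.7% of those of measured genes. The NF-κB consensus was found for Vegfa and Ero1l, against 4.51% of all windows. A match is a run of letters and not a shown binding site, and Vhl held neither core in its window. The counts are of genes and the shares are of windows, so Vegfa, with 2 windows, counted when either held a match. For Vegfa the cores were in the window of an internal start site, and the window at the outer start held none. The RefSeq start of Hif1a is also internal, since it lies inside the GENCODE span given above.

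The 250 bases before the start site are printed for 5 genes, because Hif1a, P4ha1 and Adm had the highest rises with LPS among the 10 and because Egln3 and Bnip3 varied together between libraries. The plus-strand windows are chr12:73907617-73907866 for Hif1a, chr10:59323046-59323295 for P4ha1 and chr7:110627407-110627656 for Adm. The minus-strand windows are chr12:54203875-54204124 for Egln3 and chr7:138909507-138909756 for Bnip3. Each runs 5′ to 3′ along the gene's strand, and capitals mark ACGTG and GCGTG on either strand, so CACGT and CACGC are these cores read on the other strand and CACGTG holds ACGTG on both.
Hif1a: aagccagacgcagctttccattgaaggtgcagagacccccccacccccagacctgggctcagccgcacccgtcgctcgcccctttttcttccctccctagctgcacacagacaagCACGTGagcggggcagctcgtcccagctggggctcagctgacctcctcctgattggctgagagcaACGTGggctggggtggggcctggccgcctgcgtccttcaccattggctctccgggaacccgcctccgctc
P4ha1: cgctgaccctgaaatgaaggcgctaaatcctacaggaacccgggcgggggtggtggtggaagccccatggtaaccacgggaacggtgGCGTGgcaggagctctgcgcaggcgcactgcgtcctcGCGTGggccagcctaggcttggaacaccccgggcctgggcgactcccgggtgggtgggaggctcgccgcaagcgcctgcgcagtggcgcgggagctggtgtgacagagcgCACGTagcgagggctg
Adm: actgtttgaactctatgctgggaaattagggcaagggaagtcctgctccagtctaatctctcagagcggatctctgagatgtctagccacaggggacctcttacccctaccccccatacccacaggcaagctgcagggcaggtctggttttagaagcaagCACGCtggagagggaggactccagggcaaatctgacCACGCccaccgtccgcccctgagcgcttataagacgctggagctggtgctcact
Egln3: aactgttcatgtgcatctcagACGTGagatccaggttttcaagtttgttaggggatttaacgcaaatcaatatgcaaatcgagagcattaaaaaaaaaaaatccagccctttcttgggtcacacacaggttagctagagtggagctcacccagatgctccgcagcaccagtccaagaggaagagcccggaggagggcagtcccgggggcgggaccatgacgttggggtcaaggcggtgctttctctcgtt
Bnip3: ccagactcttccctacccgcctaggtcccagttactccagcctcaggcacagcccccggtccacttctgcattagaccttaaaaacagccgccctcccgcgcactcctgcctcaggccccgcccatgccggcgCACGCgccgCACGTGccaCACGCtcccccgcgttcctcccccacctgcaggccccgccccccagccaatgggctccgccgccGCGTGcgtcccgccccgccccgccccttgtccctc
The Hif1a window holds ACGTG 3 times, in a palindrome that begins 135 bases before the start site and in a copy 70 bases before it. The Adm window holds GCGTG alone, 90 and 54 bases before the start site. The single core of Egln3 lies 229 bases before its start, whereas Bnip3 has 5 cores, the nearest 35 bases before the start.

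The deposited values are rounded read counts after scaling of each library, and are called normalized counts here. The scaling factor is not given, and an estimate from the spacing of the values was 0.764 to 1.41. The values summed to between 17152972 and 17709731 in libraries without LPS and to between 22071853 and 26384551 in those with LPS. Of 8 macrophage markers, 8 were measured in every group, and T cell markers stayed below 10. Of 6 neutrophil markers 2 reached 10 in any library and Ly6g was at 0, but S100a8 was 31 to 49 without LPS and 74 to 248 with it. Of 4 eosinophil markers 2 reached 10 and Prg2 was at 0, but Siglecf was 180 to 383 without LPS and 55 to 124 with it. Of 5 endothelial markers 4 reached 10, with sums of 1259 to 2311 without LPS and 684 to 1355 with it. Vwf was 1023 to 1894 without LPS and 340 to 879 with it, while Cdh5 was 6 to 16 and 14 to 64. Of 5 B cell and 5 mast cell markers 4 each reached 10. All 4 large peritoneal macrophage markers did. Timd4 was 1 to 16 without LPS and 97 to 230 with it, and Gata6 183 to 374 and 90 to 424. The part of such cells in the LPS differences was not tested. Tnf was at most 68 in control and at least 36687 in LPS libraries, and Plin2, a lipid droplet protein, was 24922 to 25596 in control and 32521 to 36138 in oxLDL libraries. The transcripts of sex-linked genes set the libraries numbered 1 apart. Xist, the RNA of the inactive X chromosome, was at 1 in control replicate 1 and 2 in oxLDL replicate 1 but at 6331 in LPS replicate 1 and 3812 in oxLDL+LPS replicate 1, while the Y-linked Ddx3y was at 1156, 1132, 459 and 439 in the same libraries. Replicates numbered 2 held at most 2 counts of Ddx3y in any group, and replicates numbered 3 held both genes in all groups. Control and oxLDL replicates 1 thus held Y-linked transcripts with almost no Xist. Replicates 2 held Xist at 5933 to 7751 with almost no Ddx3y, so these libraries did not show both sexes. Number 1 therefore did not hold the same sexes with and without LPS. Markers of mesothelial cells and fibroblasts (10 of 10 measured in each group) summed to 18662 to 32160 in replicates 1, 14799 to 17799 in replicates 2 and 5456 to 6325 in replicates 3. In bulk RNA, fewer cells that make a transcript and less of it per cell cannot be told apart.

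The first comparison asked what LPS does to these transcripts in unloaded PMφs. Hif1a, the oxygen-regulated subunit, was among the genes that rose. Its normalized counts were 2033, 2076 and 2003 in control replicates 1 to 3 and 9099, 7885 and 9081 in LPS replicates 1 to 3. Every LPS library was above every control library, and the log2 fold change was 2.09 (SE 0.09), or 4.25-fold (limma, adjusted p = 1.459e-06). Arnt, the partner subunit, was 1284, 1136 and 1264 in control and 1118, 1022 and 1246 in LPS libraries. Its groups overlapped, with a difference of -0.12 (limma, adjusted p = 0.352), which passed the threshold only after rescaling to the upper quartile (-0.22, adjusted p = 0.0801). Of 13023 tested genes, 8039 (61.7%) were called at an adjusted p under 0.1, 31.4% of the tested genes higher and 30.3% lower with LPS. Of the 10 genes, 6 were called, 5 higher and 1 lower, a share near that of all genes. The same 6 had groups that did not overlap, as did 63.2% of all tested genes, 32.1% higher and 31.1% lower.

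**Figure D1:**
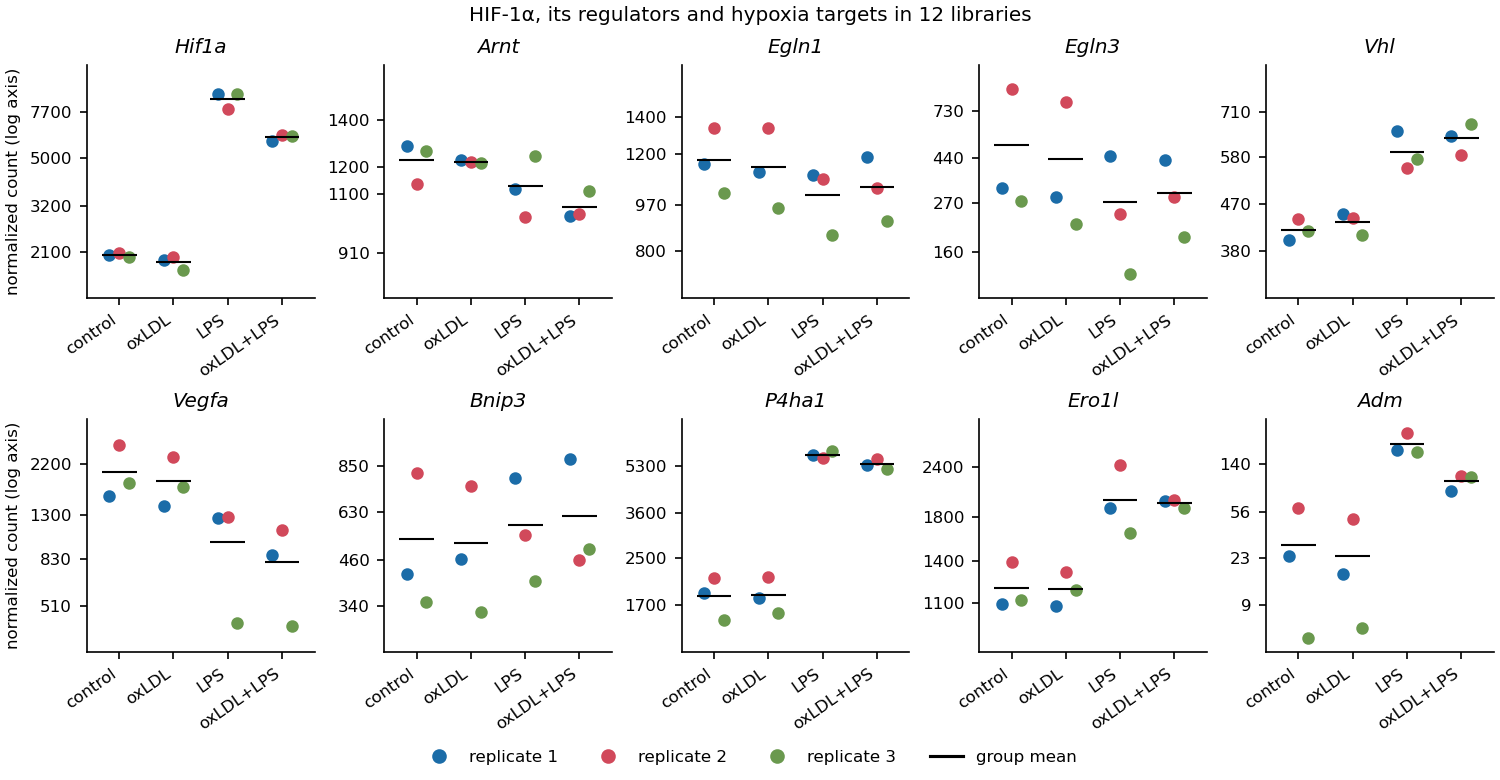
Normalized counts of the 10 genes in each of the 12 libraries, 1 panel per gene, on a log axis that differs between panels. Points are libraries coloured by replicate number, lines are group means (n = 3). Hif1a was between 2003 and 2076 in control, 7885 and 9099 in LPS and 5868 and 6207 in oxLDL+LPS libraries, while Egln3 and Bnip3 spread widely inside each group.

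The 3 regulators did not move together. Vhl, the recognition subunit of the ubiquitin ligase that removes hydroxylated HIF-1α, was 400, 439 and 416 in control and 652, 552 and 575 in LPS libraries. The groups did not overlap and the log2 fold change was 0.50 (SE 0.11, limma, adjusted p = 0.00506). Egln1, the main prolyl hydroxylase (PHD2), was 1151, 1337 and 1018 in control and 1096, 1079 and 853 in LPS libraries. LPS was lower in 3 of 3 replicate numbers, yet the groups overlapped and the difference of -0.21 (SE 0.14) was not called (limma, adjusted p = 0.241). With the replicate number as a block it was (limma, adjusted p = 0.0764), in a fit that called 7 of the 10 genes and 68.7% of all tested genes, 34.6% higher and 34.1% lower. Number 1 held Ddx3y with almost no Xist in its libraries without LPS and both transcripts in those with it. Its libraries across LPS, here and below, are therefore not a pair from the same mixture. Egln3, the hydroxylase that is itself a HIF target (PHD3), was 317, 925 and 278 in control and 451, 240 and 126 in LPS libraries. It was higher with LPS in number 1 and lower in numbers 2 and 3, and the difference of -0.86 (SE 0.56) was not called (limma, adjusted p = 0.234). Without LPS replicate 1 it was -1.31 (limma, adjusted p = 0.0872).

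Among the targets, those for protein folding and matrix rose and Vegfa fell. P4ha1, the catalytic subunit of collagen prolyl 4-hydroxylase, was 1879, 2112 and 1503 in control and 5803, 5666 and 6011 in LPS libraries. The groups lay far apart and the log2 fold change was 1.68 (SE 0.13, limma, adjusted p = 2.716e-05). Ero1l, an oxidase that drives disulfide formation in the endoplasmic reticulum, was 1094, 1392 and 1121 in control and 1898, 2422 and 1639 in LPS libraries. Its groups did not overlap and it rose by 0.71 on the log2 scale (SE 0.16, limma, adjusted p = 0.00697). Adm, which encodes the vasodilator peptide adrenomedullin, was 24, 60 and 5 in control and 183, 254 and 177 in LPS libraries. Its rise of 3.28 (SE 0.74, limma, adjusted p = 0.00665) was the highest of the 10. The control counts were low, with means of 29.67 in control and 204.7 in LPS libraries, so the rise depended on single control libraries. It was 2.38 without control replicate 3 and 4.05 without control replicate 2. Vegfa, the angiogenic growth factor, was 1580, 2681 and 1799 in control and 1266, 1270 and 429 in LPS libraries. All LPS libraries were below all control libraries, with a difference of -1.15 (SE 0.42, limma, adjusted p = 0.0487), which lost its call without control replicate 2 (-0.93, adjusted p = 0.15) and was -0.63 without LPS replicate 3 (adjusted p = 0.0525). Bnip3, a mitophagy receptor, was 418, 812 and 349 in control and 786, 540 and 400 in LPS libraries. It was higher in numbers 1 and 3 and lower in number 2, with a difference of 0.17 (SE 0.35, limma, adjusted p = 0.706). Exon bases making up 22.3% of its length are shared with an antisense gene, Gm45507, which has no values under that name. Hif1a shares 5.6% of its length with the antisense Gm15283, at group means of 2.0 to 11.0. Another 2.51% is shared with Gm49321 on the same strand, also without values.

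The same question was put to oxLDL-loaded PMφs, in libraries that the first comparison did not use. The methods describe pools split over the treatments, so these comparisons share cell pools and are not independent. Of 12900 tested genes, 7030 (54.5%) were called, 28.2% higher and 26.3% lower, and of the 10 genes 5 were called higher and 2 lower. With the replicate block the same 7 were called, beside 63.4% of all tested genes (32% higher, 31.4% lower). The groups of these 7 did not overlap, as was so for 57.6% of all tested genes (29.6% higher, 28.0% lower). Hif1a was 1938, 1990 and 1778 in oxLDL and 5868, 6207 and 6157 in oxLDL+LPS libraries, a log2 fold change of 1.68 (SE 0.08), or 3.2-fold (limma, adjusted p = 5.007e-06). P4ha1 rose by 1.56, Adm by 2.46, Ero1l by 0.71 and Vhl by 0.54 on the log2 scale (limma, adjusted p = 4.281e-05, 0.0168, 0.000624 and 0.0031). For Adm the rise was 1.76 without oxLDL replicate 3 and 3.18 without oxLDL replicate 2. Vegfa was 1432, 2352 and 1726 in oxLDL and 860, 1119 and 414 in oxLDL+LPS libraries, a difference of -1.29 (SE 0.36, limma, adjusted p = 0.0218). Arnt fell by 0.21 (limma, adjusted p = 0.052), and its adjusted p was 0.105 to 0.137 when oxLDL replicate 1, 2 or 3 or oxLDL+LPS replicate 1 was left out. Egln1, Egln3 and Bnip3 differed by -0.12, -0.37 and 0.27 and were not called (limma, adjusted p = 0.567, 0.589 and 0.556). The 5 genes called higher with LPS were therefore Hif1a, Vhl, P4ha1, Ero1l and Adm both without and with oxLDL.

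**Figure D2:**
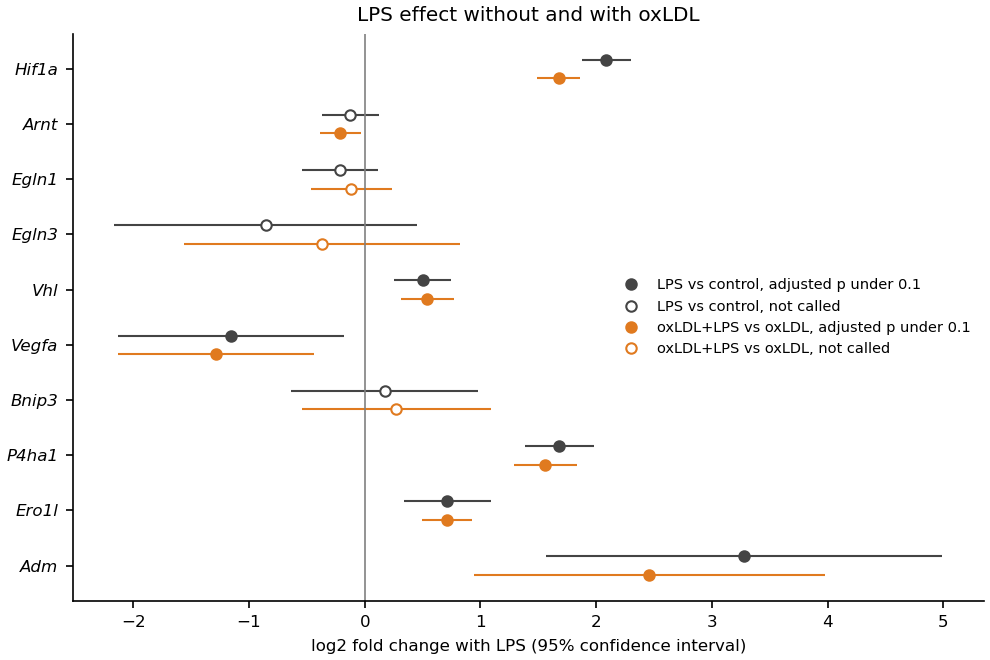
Log2 fold change with LPS of each of the 10 genes without oxLDL (dark grey) and with oxLDL (orange), with 95% confidence intervals from limma (3 libraries per group). Filled points passed an adjusted p of 0.1. The interval of Hif1a was 1.88 to 2.30 without oxLDL and 1.49 to 1.86 with it, and those of Egln3 and Bnip3 span 0.

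Loading with oxLDL alone moved none of the 10 genes past the threshold. Hif1a was lower in 3 of 3 replicate numbers, at 1938, 1990 and 1778 against 2033, 2076 and 2003 in control. The groups did not overlap, as was so for 3.91% of all tested genes in that direction, 3.79% in the other and 7.7% in either, and the difference was -0.10 (SE 0.06, limma, adjusted p = 1), with a 95% interval of the ratio from 0.839 to 1.04. Limma called 0 of 12751 genes (0%), 381 of which had an unadjusted p under 0.05, and with the replicate block it called 601 genes (4.71%, with 1.8% of the tested genes higher and 2.92% lower), again with 0 of the 10. Under the block Egln3 was at -0.23 (limma, adjusted p = 0.1202), Vegfa at -0.13 (adjusted p = 0.182) and Hif1a at -0.10 (adjusted p = 0.304). Vegfa passed in the blocked fit without the libraries numbered 3 (-0.17, limma, adjusted p = 0.0071), a fit that called 1285 genes. The interval of the ratio was 0.791 to 1.28 for P4ha1 and 0.827 to 1.2 for Ero1l, and at 0.326 to 2.22 for Egln3 and 0.184 to 4.24 for Adm it left room for large changes either way.

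With LPS present, Hif1a and Adm were lower in the loaded than in the unloaded library of all 3 replicate numbers, and both passed the threshold with the replicate block but not without it. Hif1a was 9099, 7885 and 9081 in LPS and 5868, 6207 and 6157 in oxLDL+LPS libraries, or 70.1% of the LPS level, and the log2 difference was -0.51 (SE 0.10). The pairs of the same number differed by -0.63, -0.35 and -0.56. Adm was 183, 254 and 177 in LPS and 84, 111 and 109 in oxLDL+LPS libraries, 50.1% of the LPS level, a difference of -1.0 (SE 0.20) with pairs at -1.11, -1.19 and -0.69. For both genes every oxLDL+LPS library was below every LPS library, as it was for P4ha1 (5348, 5633 and 5192 against 5803, 5666 and 6011). That held for 6.39% of all tested genes in that direction, 6.18% in the other and 12.6% in either. P4ha1 itself differed by -0.11 (SE 0.09, limma, adjusted p = 0.813).

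How these differences stood against the replicate error depended on the replicate number. Without a block limma called 0 of 12786 genes (0%), although 890 had an unadjusted p under 0.05, and Hif1a and Adm both had an adjusted p of 0.698. With the replicate number as a block 1682 genes (13.2%) were called, 8.74% of the tested genes lower and 4.42% higher, and of the 10 genes Hif1a (limma, adjusted p = 0.0126) and Adm (limma, adjusted p = 0.00739). Without the pair numbered 3 the blocked fit called 0 genes, and the adjusted p was 0.365 for Hif1a (-0.49) and 0.348 for Adm (-1.15). Without the pair numbered 1, Adm passed (limma, adjusted p = 0.098) and Hif1a did not (0.188), in a fit that called 71 genes. Without the pair numbered 2, Hif1a was at -0.60 (limma, adjusted p = 5.33e-07), Adm at -0.90 (5e-06) and Vegfa passed as well (-0.30, 0.0308). That fit called 2945 genes, more than the 1682 called with all pairs. The pair numbered 2 also held the lowest Hmox1 and Cd36 among the oxLDL+LPS libraries. Hmox1, a heme oxygenase, was 12622 there against 55988 and 43842 in replicates 1 and 3, and the scavenger receptor Cd36 was 41849 against 59206 and 64548. With oxLDL alone number 2 was also lowest, for Hmox1 at 7989 against 9106 and 13359 and for Cd36 at 53483 against 67666 and 93423. Plin2 went another way, at 17964, 16335 and 14208 in oxLDL+LPS replicates 1 to 3, lowest in number 3. The part of oxLDL+LPS replicate 2 in the differences was not tested. None of the other 8 genes was called in these full fits, with Vegfa at -0.26, Egln3 at 0.26, Vhl at 0.09, Bnip3 at 0.08, Egln1 at 0.05, Ero1l at -0.01 and Arnt at -0.09, beside P4ha1 above. Ero1l was at 99.4% of the LPS level, with a 95% interval of the ratio from 0.782 to 1.26.

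**Figure D3:**
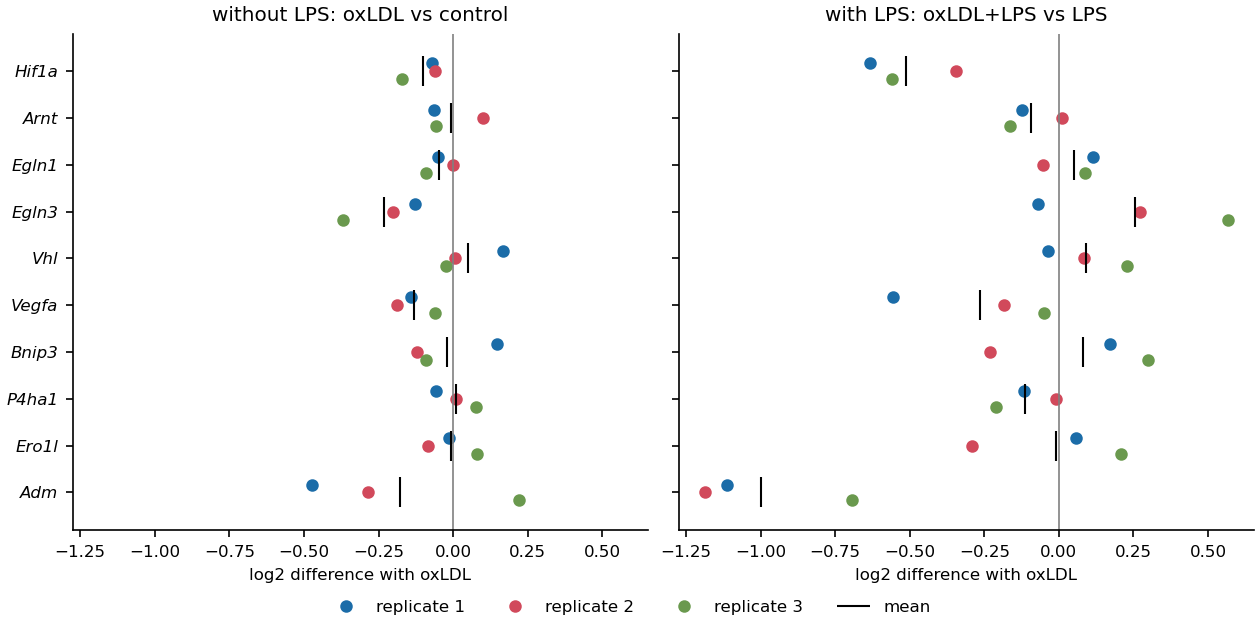
Log2 difference between loaded and unloaded PMφs of the same replicate number, without LPS (left) and with LPS (right), for the 10 genes. Points are the 3 replicate numbers and black lines their means. With LPS, Hif1a lay between -0.63 and -0.35 and Adm between -1.19 and -0.69 in all 3 numbers. Without LPS, Hif1a lay between -0.17 and -0.06.

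The difference between the oxLDL effects with and without LPS was then fitted on all 12 libraries, which the single comparisons share. For Hif1a it was -0.41 (SE 0.11), the gap between a log2 rise with LPS of 2.09 in unloaded and 1.68 in loaded cells. It was not called without a block (limma, adjusted p = 1), where 0 of 13482 genes were (0%) and 418 had an unadjusted p under 0.05. With replicate numbers as blocks within each LPS state 147 genes (1.09%) were called, 0.682% of those tested lower and 0.408% higher, and Hif1a was the single one of the 10 (limma, adjusted p = 0.0926). That call was lost without the libraries numbered 1 (-0.34, limma, adjusted p = 0.715) or numbered 3 (-0.42, 0.635), fits that called 0 genes. It was kept without those numbered 2 (-0.48, 0.0343), a fit that called 763 genes. It was not made with 1 block per number over the 4 groups, where 0 genes were called. Adm (-0.82) and Egln3 (0.49) did not pass under the block within each state (limma, adjusted p = 0.203 and 0.200).

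The 10 genes differed in how far replicate libraries of a group stood apart. The pooled within-group SD on the log2 scale was 0.0772 for Hif1a, 0.0921 for Arnt and 0.0945 for Vhl, at percentiles 4.49, 9.29 and 10.0 of 13482 genes and 10.7, 19.4 and 15.3 of genes of similar level. For Egln3 it was 0.879, for Vegfa 0.643 and for Bnip3 0.564, at percentiles 95.1, 88.5 and 84.9 of all genes and 99.0, 98.7 and 97.5 of those of similar level. For Adm it was 1.12, and the ratio of its highest to its lowest library was 12 in control and 8.17 in oxLDL but 1.44 in LPS and 1.32 in oxLDL+LPS. Egln3, Egln1 and Bnip3 were high and low in much the same libraries. Deviations from the group means had a correlation over the 12 libraries of 0.947 for Egln3 and Bnip3, 0.936 for Egln1 and Egln3 and 0.75 for Egln3 and Vegfa. Egln3 was at 0.67 with Adm, 0.663 with P4ha1, 0.611 with Ero1l and 0.271 with Hif1a, and the highest pair was P4ha1 and Adm at 0.951. Without LPS, where Adm was only 5 to 60, it deviated by -1.80 to 1.54. In LPS replicates 1 to 3 Adm deviated by -0.14, 0.33 and -0.19 and P4ha1 by -0.005, -0.04 and 0.05. In oxLDL+LPS replicates these were -0.26, 0.14 and 0.12 for Adm and -0.01, 0.06 and -0.05 for P4ha1. The points of these correlations share their pools, and the values are a description.

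Without LPS the libraries numbered 2 were the high ones. In control, replicate 2 held the highest value of 9 of the 10 genes and in oxLDL of 8 of 10, where 32.8% and 33.4% of all genes had theirs. Of 38 listed hypoxia targets outside glycolysis, 23 in control and 25 in oxLDL were highest in replicate 2. With LPS, replicate 1 held the highest Egln1, Egln3 and Bnip3 in both groups, and replicate 3 the lowest Egln1, Egln3 and Vegfa. Egln3 thus ran from 126 in LPS replicate 3 to 925 in control replicate 2, and within a number it changed with oxLDL by 0.57 at most on the log2 scale. The mesothelial and fibroblast markers were highest in replicate 1 and lowest in replicate 3 of all groups, which is the order of Egln3 with LPS but not without it. The sex-linked transcripts also differed between the numbers, and the part of either in this spread was not tested.

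**Figure D4:**
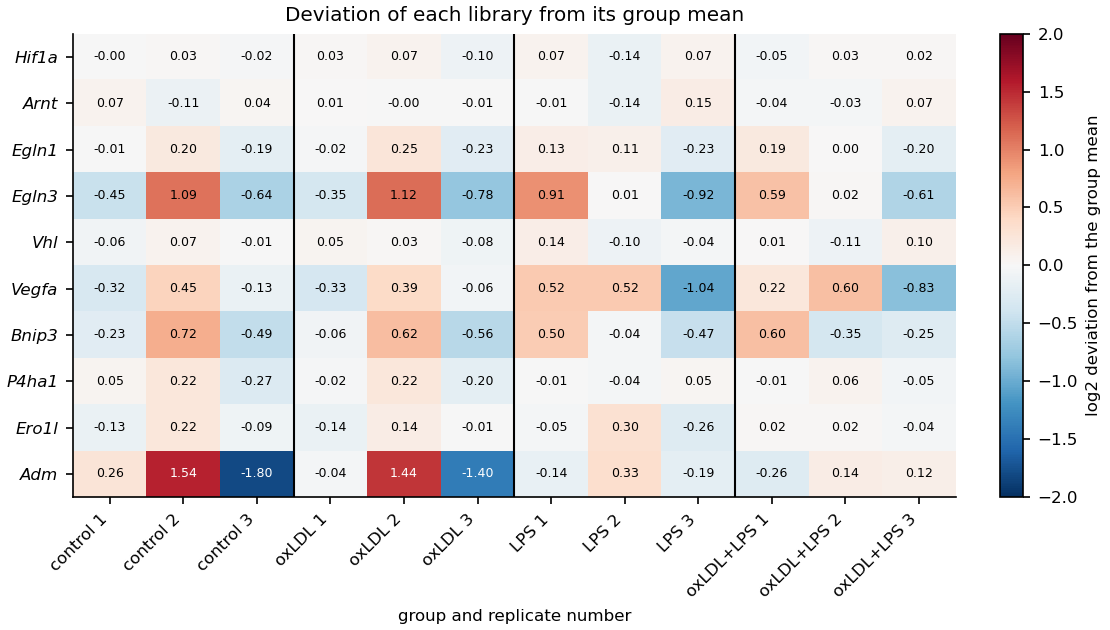
Log2 deviation of each library from the mean of its group (3 libraries) for the 10 genes, with vertical lines between groups. Replicate 2 was highest for 9 of 10 genes in control and 8 of 10 in oxLDL, with Egln3 at 1.09 and 1.12, and with LPS replicate 3 was lowest for Egln1, Egln3 and Vegfa, with Vegfa at -1.04 and -0.83. Hif1a stayed within 0.14 of its group mean in every library.

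Levels were compared between genes per kilobase of exon. In control PMφs Vegfa (471 normalized counts per kb) and P4ha1 (445) led and overlapped, followed by Hif1a (346) and Egln1 (325), which also overlapped each other. Adm, at 18.3, was the lowest and stood apart from Vhl (140). In LPS libraries Hif1a (1470) and P4ha1 (1420) led and overlapped, with Ero1l next at 376, and Vegfa had dropped to 231. In oxLDL+LPS libraries P4ha1 (1310) stood above Hif1a (1030) with no overlap, and Adm (62.6) stood below Egln3 (114). Egln3 and Arnt overlapped in control, oxLDL and oxLDL+LPS libraries.

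The genes whose profile was most like that of Hif1a over the 12 libraries, among 9447 genes with a mean of at least 100, were Tmem2 (Pearson 0.998), Rock1, Gm26809, Pak4 (each 0.995) and Crim1 (0.994). Tmem2, a cell-surface hyaluronidase, was 539 to 670 in control, 3216 to 4370 in LPS and 2243 to 2397 in oxLDL+LPS libraries. Of the 10 genes P4ha1 was the nearest to Hif1a (0.979). Of these 5, Gm26809 alone was also among the 5 nearest by rank. For Egln3 the nearest were Egln1 (0.947), F13a1 (0.943), Arg1 (0.927), Cd300lf (0.876) and Pdk1 (0.874), of which 2 were among the 5 nearest by rank. Arg1, the arginase of alternatively activated macrophages, was 887, 3605 and 396 in control and 1343, 453 and 79 in LPS libraries, so the order of the 3 numbers was that of Egln3 in both groups. All these values hold the group differences as well as the spread inside groups.

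The wider pathway was counted over 12 lists, which hold the 10 genes as well as others. For LPS vs control, 31.4% of all tested genes were called higher and 30.3% lower, and the counts that follow stand beside these shares. Among HIF subunits, Hif1a rose with LPS while Epas1, which encodes HIF-2α, fell from 5783, 7691 and 7808 in control to 2237, 2071 and 2234 in LPS libraries (-1.69, SE 0.13, limma, adjusted p = 2.7e-05). Arnt2 fell as well (-1.83, limma, adjusted p = 0.00342), and Hif3a was too low to test. In the list of oxygen sensing and HIF-α degradation 8 of 12 genes rose and 0 fell (with the block Egln1 fell), at a median of 0.37 against -0.000967 over all tested genes. Cul2 (1.3), Tceb1 (0.74) and Siah2 (0.54), which like Vhl belong to or act as ubiquitin ligases, led the rise (limma, adjusted p = 0.000146, 0.000576 and 0.0224). Of the coactivators and chaperones, 4 of 6 rose and 0 fell, among them Cited2 (0.97, limma, adjusted p = 0.00417), an inhibitor of HIF-dependent transcription. Of the inputs to Hif1a, 6 of 8 rose and 0 fell, led by the NF-κB genes Nfkb1 (3.22) and Rela (1.58) and by Stat3 (1.55) (limma, adjusted p = 2.89e-06, 3.83e-05 and 3.48e-05).

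Of 38 tested hypoxia targets outside glycolysis, 6 of them among the 10 genes, 12 rose and 12 fell with LPS, with a median of -0.03. These shares are close to those of all tested genes (31.4% higher, 30.3% lower). Edn1 (9.18) and Adm (3.28) were among those that rose, and Cxcr4 (-5.27), Ankrd37 (-2.10) and Bhlhe40 (-1.54) fell most (limma, adjusted p from 1.74e-06 to 0.00665). Of 17 glycolytic targets 8 rose, led by the hexokinase Hk2 (1.86), Pfkp (1.26) and the glucose transporter Slc2a1 (0.96), and 5 fell, led by Pdk1 (-0.93), Aldoc (-0.54) and Pkm (-0.40) (limma, adjusted p from 0.000106 to 0.0703). All 7 inflammatory genes with reported HIF-1α input rose, from Nampt (2.62) to Il1b (12.76). In the families of the 10 genes, some relatives moved with them and some the other way. Bnip3l, the other BNIP3-type mitophagy receptor, fell from 6785, 7112 and 7525 to 2538, 2935 and 2720 (-1.39, limma, adjusted p = 1.33e-05), and of 6 mitophagy receptors 0 rose and 3 fell. Ero1lb fell (-0.33, limma, adjusted p = 0.0163) where Ero1l rose, and the other 6 of 8 genes of disulfide formation were not called, although with the block Pdia6 rose (0.27, limma, adjusted p = 0.0205) and P4hb fell (-0.24, 0.0409). Plod3 rose with P4ha1 (1.12, limma, adjusted p = 3.67e-05) and Plod1 fell (-0.67, 0.000726), with the other 4 of 7 collagen hydroxylases not called (with the block P4ha2 rose, at 0.40 and 0.0307, and P4hb fell). Calcrl, the receptor that binds adrenomedullin when paired with RAMP2 or RAMP3, rose with Adm (3.30, limma, adjusted p = 3.34e-07). Ramp3 was not called (0.27, limma, adjusted p = 0.671), Ramp2 was too low to test at 0 to 6, and Ramp1, which forms the CGRP receptor with Calcrl, fell (-1.42, 0.0028). Among the VEGF family, Vegfb (-0.91) and Nrp1 (-1.39) fell with Vegfa while the receptors Nrp2 (2.93), Flt4 (1.86), Flt1 (1.85) and Kdr (0.54) rose (limma, adjusted p from 7.33e-07 to 0.0767). Kdr is also among the endothelial markers above, and the part of endothelial cells in these changes was not tested.

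**Figure D5:**
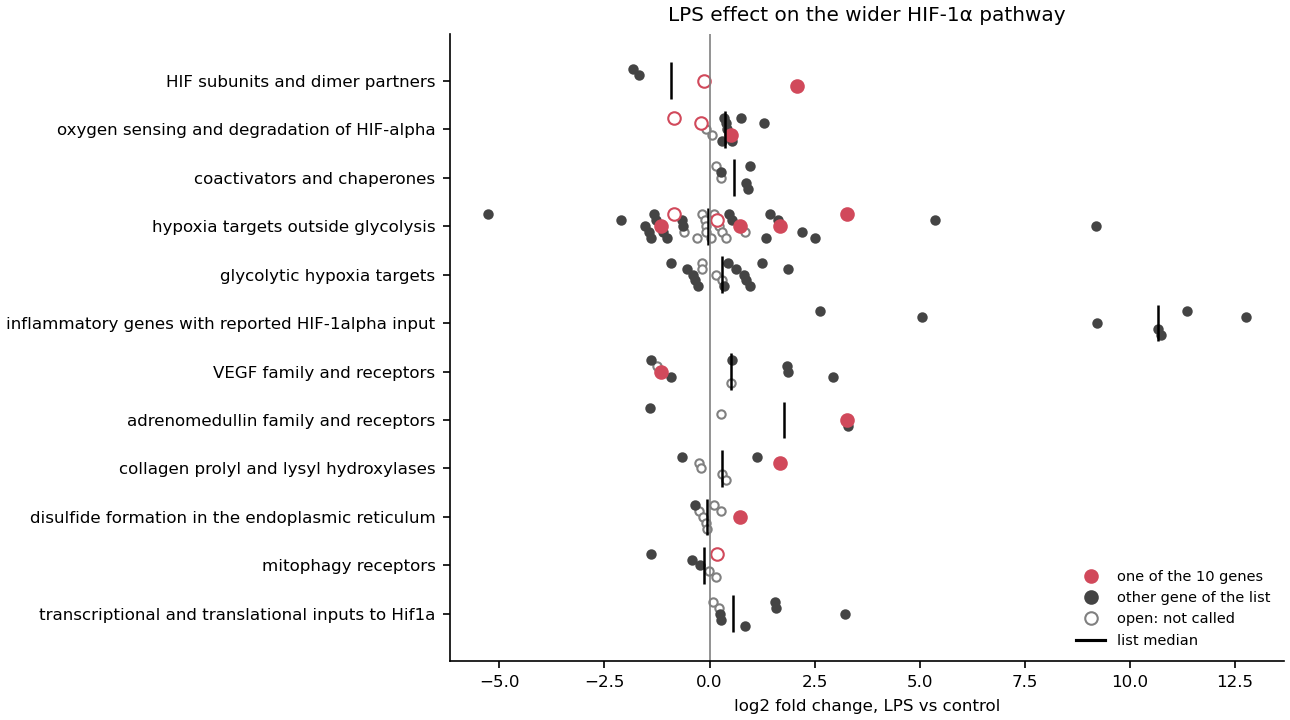
Log2 fold change, LPS vs control, of every tested gene in 12 lists of the HIF-1α pathway. Filled points passed an adjusted p of 0.1, red points are the 10 genes, and vertical bars are list medians. Hypoxia targets outside glycolysis lie on both sides of 0 (12 called higher, 12 lower), and all 7 inflammatory genes lie above 2.

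For oxLDL in the presence of LPS, 0 genes of any list passed without the block. With it, Epas1 fell together with Hif1a (-0.51, limma, adjusted p = 0.013), as Epas1 did with oxLDL alone (-0.30, limma with the block, adjusted p = 0.0726), and 4 of the 38 hypoxia targets outside glycolysis were higher and 9 lower, where 4.42% of all tested genes were called higher and 8.74% lower. Edn1 (-2.26) and Adm were among the lower and Narf (0.56), Pfkfb4 (0.37) and Tfrc (0.37) were the highest of these (limma with the block, adjusted p from 0.00648 to 0.071). Il1b, Ptgs2, Nos2 and Cxcl2 were lower (-2.16, -1.89, -1.39 and -0.74) and Slc7a11 higher (0.70), and of the inputs Stat3, Nfkb1 and Ikbkb were lower. Of 12 genes of oxygen sensing 0 were called in either fit. For oxLDL without LPS the block called 2 of 36 hypoxia targets outside glycolysis higher, Angptl4 (1.335) and Tfrc (0.51), and 4 lower, Ankrd37 (-0.57), Cxcr4 (-0.38), Ndrg1 (-0.30) and Rora (-0.21), beside 1.8% and 2.92% of all tested genes (limma, adjusted p from 0.000411 to 0.0728). These lists were written with earlier results of the same libraries known, so their counts are not independent evidence of a direction.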

How the data were processed

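According to the submitters' processing notes and the methods, the authors trimmed reads with Trimmomatic 0.32, mapped them to mm10 with STAR 2.5.1b and used featureCounts and DESeq2. The deposited signal consists of rounded, library-scaled values from which reads were not recovered, and the strand setting is not stated. Here limma 3.58.1 (R 4.3.3, eBayes with trend) was run on log2(value + 1) for genes reaching 10 in 3 or more libraries of a fit, with Benjamini-Hochberg adjustment over all of them and calls under 0.1. The fit without a block was tested on simulated independent libraries, and the fit with the replicate block was not tested in this way. The p-values measure the spread between these libraries.

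The labels number replicates 1 to 3, and the methods describe pools split over treatments. Deviations from group means (10484 genes) correlated at 0.720 to 0.802 between same-numbered libraries within an LPS state, 0.295 to 0.664 across it, and -0.537 to 0.013 between other numbers, so the number was also fitted as a block.

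Members and lists were chosen with earlier results of these data known. Named are the 10 genes, called genes of 12 lists (the 3 largest changes in each direction where over 6 were called), the 5 genes nearest to Hif1a and Egln3, and treatment check genes. One gene that this rule would name is not reported here. Hmox1 and Cd36 are given by library because of their values, and Plin2 is given beside them.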

Additional observations from a re-analysis of the deposited data

Results flagged for a closer look

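For Hif1a the effect of oxLDL differed between PMφs with and without LPS in the fit with replicate numbers as blocks within each LPS state. The difference was -0.41 on the log2 scale (limma, adjusted p = 0.0926), from an oxLDL effect of -0.51 with LPS and -0.10 without. It was not called without the block (limma, adjusted p = 1), and its adjusted p over the alternatives ran from 0.0343, with the block and without the libraries numbered 2, to 1. No other of the 10 genes met a rule of this kind.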

How the results depend on the processing

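Of 997 recomputed values, 909 were taken as unchanged. For a difference this meant the same direction and the same side of the threshold. For a count of called genes it meant a count within a factor of 1.5. The replicate block changed most: it called 601 genes for oxLDL vs control, 1682 for oxLDL+LPS vs LPS and, within each LPS state, 147 for the interaction, each against 0 without it, and it called 2 and 1 of the 10 genes in the last pair. Of the 10, it added Egln1 for LPS vs control and changed no other call in the LPS comparisons. All 12 libraries in the fit gave 29 genes for oxLDL+LPS vs LPS, 1 of the 10 among them (Hif1a, adjusted p = 0.0989). With the block and 1 number left out, the 10 genes gave 0 to 1 call for oxLDL vs control, 0 to 3 for oxLDL+LPS vs LPS and 0 to 1 for the interaction, the last of these chosen after seeing the data. Over all tested genes these fits called 139 to 1285, 0 to 2945 and 0 to 763. The highest counts of the 10 came from the fits with the most genes called. For LPS vs control in such fits, Egln3 passed without number 1 (-1.54, limma, adjusted p = 0.000437) and Bnip3 without number 2 (0.55, 0.0297). In loaded cells Egln3 passed without number 1 (-0.83, limma, adjusted p = 0.025) and Bnip3 without number 2 (0.76, 0.00383). Those fits called 6820 to 8085 genes, and with all numbers the block called 68.7% of tested genes in unloaded and 63.4% in loaded cells. Without oxLDL+LPS replicate 2, 91 genes passed for oxLDL+LPS vs LPS and 6 for the interaction (0 to 91 and 0 to 6 over all libraries left out). TMM rescaling turned small differences of Arnt and Ero1l for oxLDL vs control (0.0023 and 0.0022) and of Ero1l for oxLDL+LPS vs LPS (0.019) and the interaction (0.025), and leaving out both libraries numbered 2, an alternative added after seeing the data, put Ero1l at 0.13 for oxLDL+LPS vs LPS. With libraries left out in turn, differences that had not been called changed sign. For LPS vs control, the range was -0.080 to 0.53 for Bnip3. For oxLDL vs control, the range was -1.08 to 0.59 for Adm, -0.061 to 0.027 for Arnt, -0.33 to 0.34 for Bnip3, -0.17 to 0.071 for Egln1, -0.79 to 0.31 for Egln3, -0.077 to 0.10 for Ero1l, -0.13 to 0.12 for P4ha1, -0.32 to 0.093 for Vegfa. For oxLDL+LPS vs LPS, the range was -0.22 to 0.33 for Bnip3, -0.066 to 0.15 for Egln1, -0.20 to 0.71 for Egln3, -0.14 to 0.14 for Ero1l, -0.78 to 0.15 for Vegfa. For oxLDL+LPS vs oxLDL, the range was -0.025 to 0.59 for Bnip3, -0.23 to 0.0095 for Egln1, -0.76 to 0.19 for Egln3. For the interaction, the range was -1.59 to 0.082 for Adm, -0.26 to 0.41 for Bnip3, -0.021 to 0.22 for Egln1, -0.056 to 1.05 for Egln3, -0.13 to 0.15 for Ero1l, -0.23 to 0.013 for P4ha1, -0.65 to 0.28 for Vegfa, -0.0070 to 0.11 for Vhl. Among the LPS calls, Vegfa without control replicate 2 and Arnt in loaded cells were those lost. A filter of 10 in every library left Adm untested wherever libraries without LPS entered. The core sequences in the last 100 bases before the start held for 4 genes each in place of 7. With 3 libraries per group, changes of Egln3 and Adm with oxLDL alone inside the intervals given could not be detected. The cause of the changes was not tested.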
